A study of Mus musculus with 4 samples.

Results

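The miRNAs miR-205, miR-203, miR-203b and miR-31 were examined in small RNA libraries of the mouse main olfactory epithelium, the lining at the back of the nose that holds the odour-sensing neurons, their supporting cells and the basal cells that renew them. They were taken by name from the authors' deposited table, both arms of each, which gave 8 of its 1167 rows. All 4 samples came from male C57BL/6 mice 3 months of age, 2 wild type and 2 AC3-/-. AC3-/- mice lack adenylyl cyclase 3, which turns an active odour receptor into a rise of cAMP in the sensory neuron, and the comparison asks how the miRNA profile differs without it. The labels give no further allele and do not say whether the 2 samples of a genotype came from separate mice or pools, so a p-value here speaks only for the spread among these samples, which may be technical.

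Each miRNA gene is copied into an RNA that folds into a hairpin, from which both arms can be released. An arm that is loaded into an Argonaute protein pairs with messenger RNAs through its seed and lowers their output, and the other arm is usually degraded. In mouse skin, miR-205 is known from the basal, stem-cell-rich layer of stratified epithelium, and in epithelial cell lines it represses, with the miR-200 family, the transcription factors Zeb1 and Zeb2. miR-203 is known from the layers above, where it represses p63 (Trp63), the transcription factor that keeps basal cells in the stem state. miR-31 is known from growing hair follicles and healing epidermis. The olfactory epithelium has its own p63-positive reserve stem cells, the horizontal basal cells, and the neighbouring respiratory lining has basal cells too.

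The mature sequences, from RefSeq on GRCm38.p6, are shown because the arms and their seeds (bases 2 to 8, in capitals) define what was counted. All 8 rows matched an entry by name.
mmu-miR-205-5p: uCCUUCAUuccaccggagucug
mmu-miR-205-3p: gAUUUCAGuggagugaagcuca
mmu-miR-203-5p: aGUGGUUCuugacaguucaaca
mmu-miR-203-3p: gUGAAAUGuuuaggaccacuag
mmu-miR-203b-5p: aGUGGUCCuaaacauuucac
mmu-miR-203b-3p: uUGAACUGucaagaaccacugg
mmu-miR-31-5p: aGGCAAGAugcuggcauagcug
mmu-miR-31-3p: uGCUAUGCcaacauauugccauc
The 8 seeds all differ, and none is shared with another of the 1679 mature mouse names in the RefSeq table. The hairpins are shown with both mature arms in capitals, since the arm balance of miR-31 is a main result.
Mir205: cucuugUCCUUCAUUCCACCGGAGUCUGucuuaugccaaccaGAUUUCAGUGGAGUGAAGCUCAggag
Mir203: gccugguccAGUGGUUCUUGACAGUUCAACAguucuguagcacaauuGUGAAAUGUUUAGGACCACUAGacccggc
Mir31: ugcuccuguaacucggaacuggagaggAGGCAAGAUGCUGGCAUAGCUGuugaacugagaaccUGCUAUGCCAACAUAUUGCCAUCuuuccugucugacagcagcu

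Mir205 lies on the minus strand at chr1:193507463-193507530 (GRCm38), inside an exon of the long noncoding RNA gene 4631405K08Rik on the same strand. Mir31 lies on the minus strand at chr4:88910557-88910662, inside an exon of a long noncoding RNA gene that GENCODE annotates from 88909855 to 88938521 on the same strand. Mir203 lies on the plus strand at chr12:112130880-112130955, and no other gene in the GENCODE annotation overlaps it. miR-203b comes from the opposite strand of the same place. Its 5p arm covers bases 112130927 to 112130946 and lies over miR-203-3p, and all 20 bases of miR-203b-5p pair without a gap with miR-203-3p. miR-203b-3p and miR-203-5p, each 22 bases long, pair in the same way over 20 bases.

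The deposited table gives 1 mean normalised read count per genotype. The whole reads of each library were worked back from these means, with 1 solution for all 8 rows, and the libraries are called a and b within a genotype because they carry no replicate number. Summed over both libraries of a genotype, the rows hold between 19235424 and 20028567 reads for AC3-/- and between 21166264 and 23101597 for wild type. The wild-type libraries lay further apart than the AC3-/- libraries. This was counted over 449 miRNAs that had a mean of at least 10 and library values. Of these, 116 differed at least 2-fold within the wild-type pair and 26 within the AC3-/- pair. Such counts cannot tell which wild-type library was the unusual one. Markers of sensory neurons and of ciliated cells were both present. The 6 ciliated-cell miRNAs (miR-34b, miR-34c and miR-449) with library values, of 7 listed, summed to 13839.9 (library a) and 26207.9 (library b) normalised reads in AC3-/- and to 30581.0 (a) and 5971.0 (b) in wild type. None of them was at 0 in the mean of a genotype. Of 8 neuronal miRNAs, the 4 with library values (miR-124-3p, miR-9-3p, miR-183-3p and miR-182-3p) summed to 5294.0 and 3935.0 in AC3-/- and to 4673.2 and 12204.0 in wild type. These 4 did not move together between genotypes. miR-124-3p was higher in AC3-/-, with 228.2 and 183.0 against 21.3 and 37.4 in wild type. The means of miR-9-3p, miR-183-3p and miR-182-3p were lower in AC3-/-, and each was highest in wild-type library b. miR-9-3p had 3787.8 and 3161.3 normalised reads in AC3-/- and 3423.6 and 6084.4 in wild type. miR-183-3p had 399.0 and 225.7 against 272.0 and 1410.3, so for both miRNAs the genotypes overlapped. For miR-182-3p, at 879.0 and 365.0 against 956.3 and 4671.8, wild-type library a was only narrowly above AC3-/- library a. Small RNA libraries do not measure the mRNA of Adcy3, which encodes AC3, and hold no check of the genotype.

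miR-205-5p was detected in every library, and its spread within wild type was far wider than the difference between genotypes. The values were 7167.8 (library a) and 8259.6 (library b) normalised reads in AC3-/- mice, and 11194.2 (a) and 4743.1 (b) in wild type (8228, 9074, 10535 and 4056 reads). The wild-type libraries were the highest and the lowest of the 4, with both AC3-/- libraries between them. The authors' deposited table gives means of 7714 (AC3-/-) and 7969 (wild type), with a log2 fold change of -0.04 and an adjusted p of 0.979. A limma fit to the library values over 449 miRNAs, on log2(normalised reads + 1), estimated a log2 difference of 0.08 (standard error 0.43, adjusted p = 0.974).

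The sign of that difference depended on which wild-type library was kept. Without wild-type library b the limma log2 difference of miR-205-5p was -0.54 with an adjusted p of 0.394. Without library a it was 0.70 with an adjusted p of 0.0465, a fit that takes its spread from the AC3-/- libraries and assumes it for the lone wild-type library; in that fit 63 of 449 miRNAs passed. Over the other alternatives the adjusted p of miR-205-5p lay at 0.958 or above.

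miR-205-3p, the opposite arm, followed the same order of libraries at a far lower count. It had 57.5 (library a) and 81.9 (library b) normalised reads in AC3-/- mice, and 102.0 (a) and 28.1 (b) in wild type (66, 90, 96 and 24 reads). Wild-type library b was again lowest and wild-type library a highest, so the groups overlapped. The authors' deposited table gives a log2 fold change of 0.06 and an adjusted p of 0.979.

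The gap between the wild-type libraries was 2.36-fold for miR-205-5p and 3.63-fold for miR-205-3p. Ranked from the one furthest below library a, these were 41 and 18 of 449 miRNAs in wild-type library b. In the same library pair the ciliated-cell sum differed 5.12-fold in the same direction, the sum of 5 leukocyte miRNAs 3.19-fold in the same direction, and the sum of 4 neuronal miRNAs was 2.61-fold higher in library b. The sum of 4 red-cell miRNAs was 1.82-fold higher in library a, and the sum of 4 muscle miRNAs was 7024.6 in library b and 6613.5 in library a. miR-199a, miR-214 and miR-140, a list of 5 mesenchymal arms, had 2 with values in all 4 libraries. These summed to 8206.3 in library a and 7521.6 in library b. A further arm, miR-199a-5p, had library values in wild type only, 32690.2 in library a and 21908.9 in library b. The part of these other cell types in the miR-205 values was not tested, and in a whole-tissue sample fewer cells of a type and less RNA per cell cannot be told apart.

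**Figure D1:**
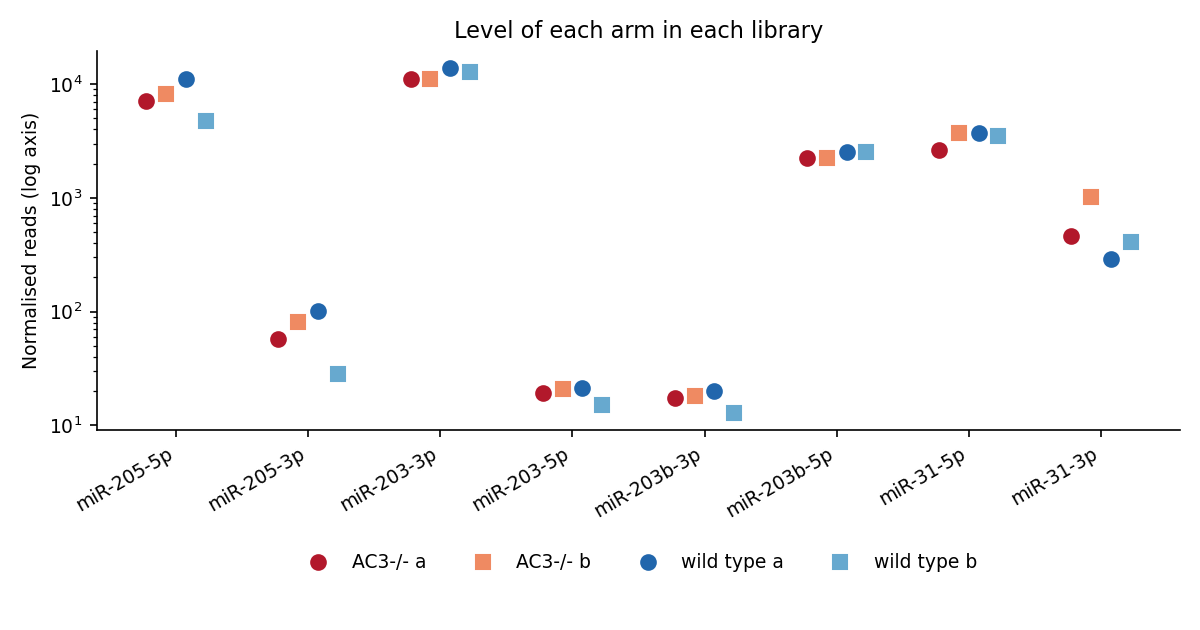
Normalised reads of each of the 8 arms (log axis) in AC3-/- libraries a and b (red, orange) and wild-type libraries a and b (dark and light blue), 1 point per library. The miR-205 arms are lowest in wild-type library b (4743.1 and 28.1), miR-203-3p lies between 11004.9 and 13873.0 throughout, and miR-31-3p is highest in AC3-/- library b (1026.8).

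**Figure D2:**
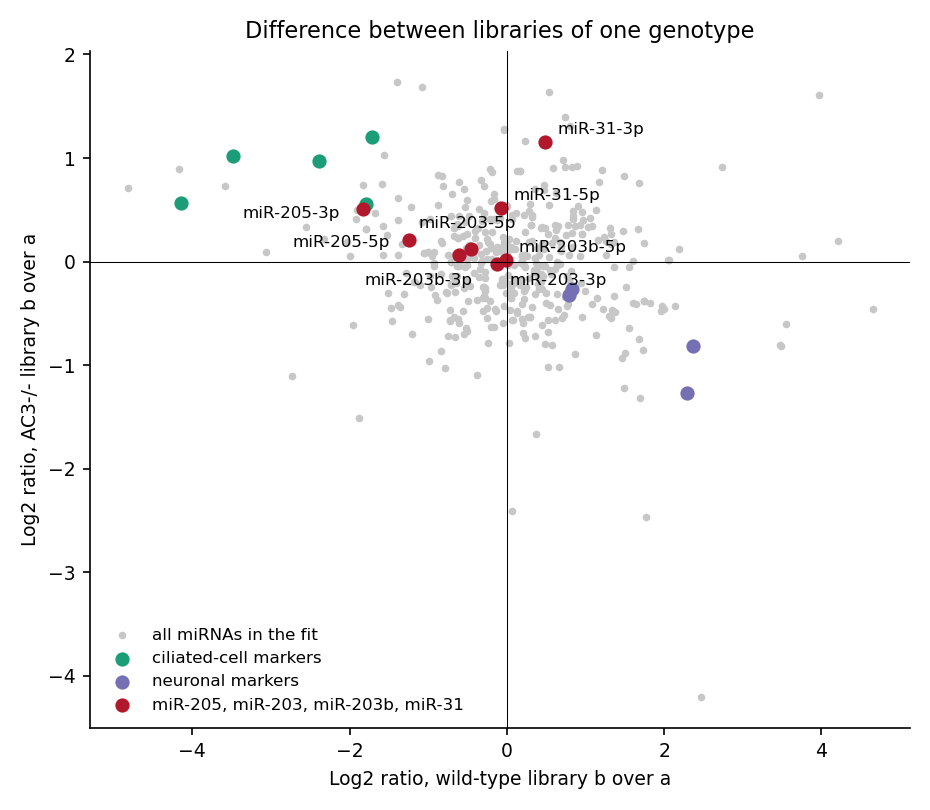
Log2 ratio of library b over a in wild type (horizontal) and in AC3-/- (vertical) for 449 miRNAs (grey), the 8 arms (red), ciliated-cell markers (green) and neuronal markers (purple). miR-205-5p and miR-205-3p lie left of 0, at -1.24 and -1.83, on the side of the ciliated-cell markers, while miR-203-3p and miR-203b-5p lie close to 0 on both axes.

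miR-203-3p, the arm that represses p63, was the member with the most reads and was steady over the 4 libraries. It had 11189.0 (library a) and 11004.9 (library b) normalised reads in AC3-/- mice, and 13873.0 (a) and 12726.7 (b) in wild type (12844, 12090, 13056 and 10883 reads). Both AC3-/- libraries lay below both wild-type libraries, a pattern that 16.9% of the 449 miRNAs showed. The authors' deposited table gives means of 11097 and 13300, p = 0.354 (adjusted p = 0.9395) and a log2 fold change of -0.24. The limma log2 difference was -0.26 (standard error 0.19, adjusted p = 0.932), so the difference did not pass.

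The direction of miR-203-3p rested on how the genotypes were scaled. The sum of the deposited means was 8739148 for AC3-/- and 12320877 for wild type, so scaling each genotype to the same total adds 0.50 to every log2 ratio and moves the median over all miRNAs from -0.06 to 0.44. On that scale miR-203-3p had a log2 ratio of 0.23, which was below that median. With the authors' scaling its log2 ratio was -0.26, below the median of all miRNAs as well. A few very abundant miRNAs weigh heavily in the totals. In AC3-/- and wild type, the means were 399796 and 1351262 for miR-200b-3p and 322736 and 1304447 for miR-183-5p. They were 386391 and 1130689 for miR-182-5p and 398861 and 997135 for miR-200a-3p. Other abundant miRNAs went the other way, such as miR-21a-5p (999383 and 716969).

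The other arm, miR-203-5p, had 22 and 23 reads in AC3-/- and 20 and 13 in wild type. It made up 0.171% (library a) and 0.190% (library b) of the reads of both arms in AC3-/-, and 0.153% (a) and 0.119% (b) in wild type. The exact 95% binomial intervals overlapped in all 4 libraries, from 0.107% to 0.259% in AC3-/- library a and from 0.0635% to 0.204% in wild-type library b; intervals cover counting error only. Both AC3-/- libraries had a higher 5p share than both wild-type libraries, by less than these intervals span.

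The rows of miR-203b tracked those of miR-203 on the opposite strand. miR-203b-5p had 2563 (library a) and 2474 (library b) reads in AC3-/-, and 2404 (a) and 2162 (b) in wild type. These were 20.0%, 20.5%, 18.4% and 19.9% of the reads of miR-203-3p in the same libraries. miR-203b-3p had 20, 20, 19 and 11 reads where miR-203-5p had 22, 23, 20 and 13. Whether reads were counted by strand is not given in the sources used here. It is therefore not known whether the rows of miR-203 and miR-203b share reads. The counts over all arms and over all precursors given below include both, so they may not be counts of separate observations.

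Other opposite-strand pairs in the table gave measurements of the same kind. RefSeq places 20 pairs of listed miRNAs on opposite strands of the same bases, with an overlap of at least 16 bases, library values for both and a mean of at least 10 in the larger. In 2 of them, miR-142a-3p with miR-142b and miR-338-3p with miR-3065-5p, the read numbers were identical in all 4 libraries. In 6 pairs, these included, the smaller row held at least 95% of the reads of the larger in every library. In 4 pairs it held at most 10% in every library. The miR-203 pairs lay between these extremes, at 18.4% to 20.5% for the abundant arms and at 84.6% or more for the scarce ones.

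In normalised reads miR-203b-5p had 2232.8 and 2252.0 in AC3-/- and 2554.4 and 2528.3 in wild type. As for miR-203-3p, both AC3-/- libraries were below both wild-type libraries. Its log2 fold change is -0.17 in the authors' deposited table, with an adjusted p of 0.9395. With both genotypes scaled to the same total its log2 ratio was 0.31. miR-203-5p and miR-203b-3p had log2 fold changes of 0.10 and 0.07 in the authors' deposited table, each with an adjusted p of 0.979, and their libraries overlapped.

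miR-31-3p, the less abundant arm of miR-31, showed the widest genotype difference among the 8 arms. It had 461.7 (library a) and 1026.8 (library b) normalised reads in AC3-/- mice, and 290.1 (a) and 408.1 (b) in wild type (530, 1128, 273 and 349 reads). Both AC3-/- libraries lay above both wild-type libraries, as for 16.7% of the 449 miRNAs. AC3-/- library a exceeded wild-type library b only narrowly, and library b was 2.22-fold above its AC3-/- partner, the 19th widest gap of 449 between the AC3-/- libraries. The mean was 744.2 ± 400 (SD, n = 2) in AC3-/- and 349.1 ± 83.5 (SD, n = 2) in wild type, a 2.13-fold difference.

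That difference of miR-31-3p did not pass any test. The authors' deposited table gives p = 0.0574 (adjusted p = 0.9395) and a log2 fold change, shrunken toward 0, of 0.82. The limma log2 difference was 1.00 (standard error 0.49, unadjusted p = 0.0939, adjusted p = 0.932), rank 33 of 449 by p. It was 0.42 without AC3-/- library b and 1.57 without AC3-/- library a, positive in both. The exact permutation test of 2 libraries against 2 gave its smallest possible two-sided p of 0.333.

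miR-31-5p, the abundant arm, did not share this pattern. It had 2614.3 (library a) and 3732.9 (library b) normalised reads in AC3-/- mice, and 3686.1 (a) and 3512.9 (b) in wild type (3001, 4101, 3469 and 3004 reads). AC3-/- library a was lowest and AC3-/- library b highest, so the genotypes overlapped. The authors' deposited table gives means of 3174 and 3599, a log2 fold change of -0.16 and an adjusted p of 0.9444. With both arms added, miR-31 averaged 3917.9 normalised reads in AC3-/- and 3948.6 in wild type, a log2 ratio of -0.01.

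The arm balance of miR-31 compares the arms within a library and so does not depend on how libraries are scaled. The 3p arm held 15.0% (library a) and 21.6% (library b) of miR-31 reads in AC3-/-, and 7.30% (a) and 10.4% (b) in wild type. The exact 95% intervals were 13.8% to 16.2% and 20.5% to 22.7% in AC3-/-, and 6.48% to 8.18% and 9.39% to 11.5% in wild type. No pair of these 4 intervals overlapped, so the libraries of each genotype also differed from each other beyond counting error. The mean share was 18.3% ± 4.64 (SD, n = 2) in AC3-/- and 8.85% ± 2.20 (SD, n = 2) in wild type, a difference of 9.44 percentage points. The exact permutation test gave p = 0.333, the smallest it allows.

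**Figure D3:**
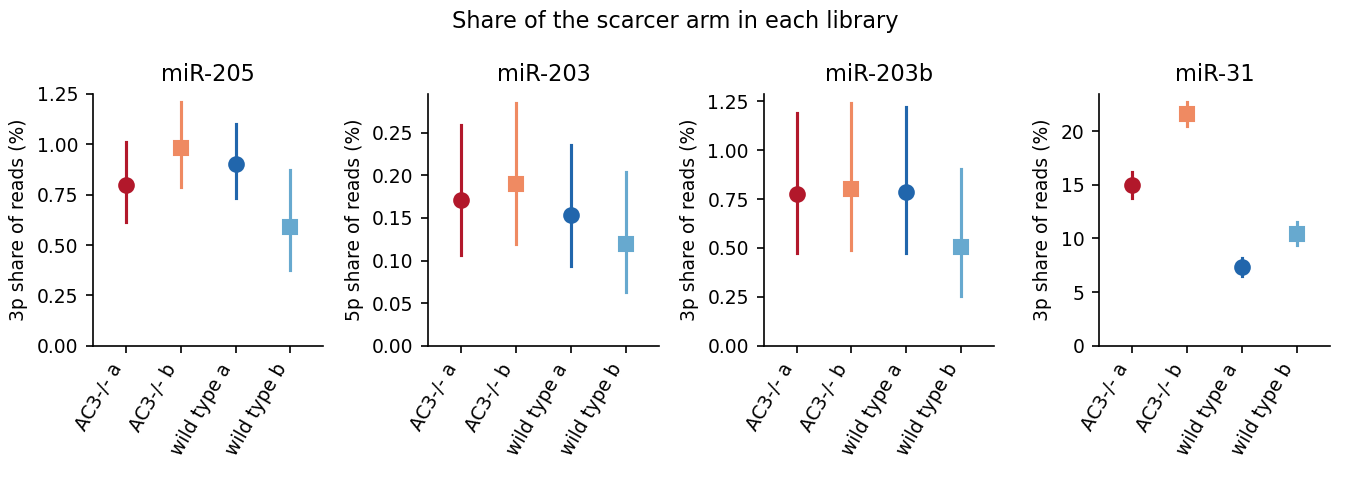
Share of the scarcer arm among the reads of both arms of each precursor (percent, axes from 0, a scale of its own per panel), 1 point per library with its exact 95% binomial interval. For miR-31 both AC3-/- libraries (15.0% and 21.6%) lie above both wild-type libraries (7.30% and 10.4%); for miR-205, miR-203 and miR-203b the scarcer arm is near or below 1% and the intervals overlap.

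Such a separation of the arm share was common in these libraries. Among 115 precursors with both arms at a mean of at least 10, the 3p share was higher in both AC3-/- libraries in 18.3% and lower in both in 20.0%. These precursors include opposite-strand rows with identical read numbers, miR-338-3p and miR-3065-5p. The shift of miR-31 was large among them. Its log2 ratio of 3p to 5p reads was 1.20 higher in AC3-/-, a 2.30-fold difference. That shift was rank 5 from the top, and rank 7 of 115 by size in either direction. The median over the 115 was 0.05 and the middle range from -0.29 to 0.32. The other 4 precursors at or above it were miR-1306, miR-186, miR-380 and miR-485, and in each of these the genotypes did not overlap either. A limma fit to the arm ratios, added after the values were seen, gave miR-31 a standard error of 0.38, an unadjusted p of 0.0206 and an adjusted p of 0.395. No precursor passed that fit at an adjusted p of 0.05, and 11 of 115 (9.57%) had an unadjusted p under 0.05. With 1 library left out of that fit, the shift of miR-31 stayed above 0. It was 1.48 (adjusted p = 0.0455) without wild-type library b and 0.92 (adjusted p = 0.269) without wild-type library a, fits whose spread comes from the AC3-/- pair alone. It was 1.52 (adjusted p = 0.666) without AC3-/- library a and 0.88 (adjusted p = 0.976) without AC3-/- library b, where the spread comes from the wild-type pair alone.

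For the other precursors the shift of the arm ratio was smaller than for miR-31 and did not pass the test. The 3p share of miR-205 was 0.796% and 0.982% in AC3-/- and 0.903% and 0.588% in wild type, with overlap. That of miR-203b was 0.774% and 0.802% against 0.784% and 0.506%. Their log2 shifts were 0.27 with a standard error of 0.35 for miR-205 and 0.31 with a standard error of 0.34 for miR-203b, and that of miR-203 was -0.40 with a standard error of 0.31. The libraries of the genotypes did not overlap for miR-203, whose 3p share was lower in both AC3-/- libraries, as in 20.0% of the 115, and its shift was rank 98 from the top. None had an adjusted p under 0.819 in the limma fit to the arm ratios.

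**Figure D4:**
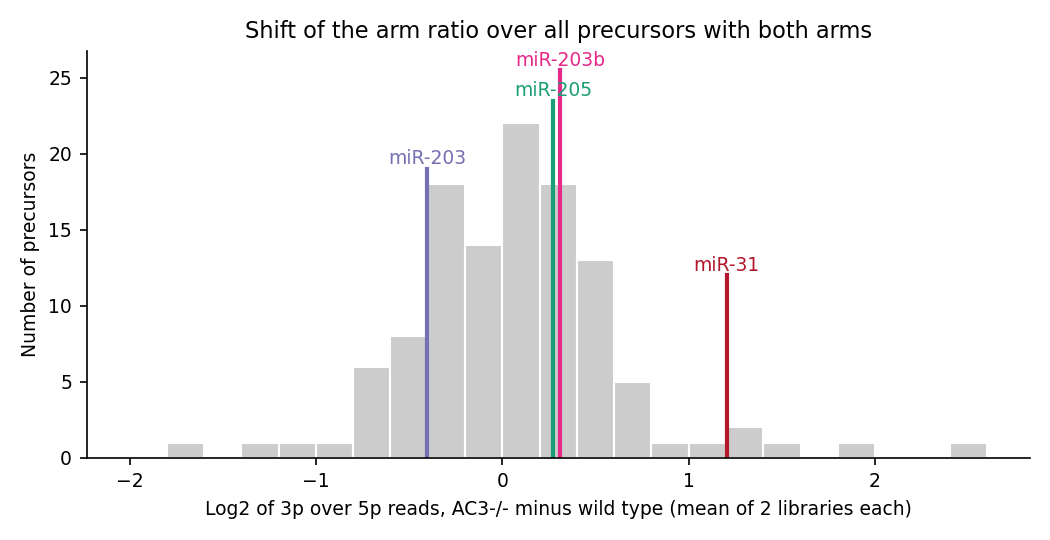
Histogram of the change in the log2 ratio of 3p to 5p reads, AC3-/- minus wild type, over 115 precursors, with vertical lines at miR-205 (0.27), miR-203 (-0.40), miR-203b (0.31) and miR-31 (1.20). The heights of the lines carry no value. miR-31 lies in the right tail, miR-205 and miR-203b within the middle range of -0.29 to 0.32, and miR-203 below it.

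Over the whole set, 0 of 8 arms passed an adjusted p of 0.05 in the authors' deposited table, where 1 of 1167 rows did (0.0857%), and 0 of 8 had an unadjusted p under 0.05, against 41 rows in all (3.51%). limma on the library values also called 0 of 8 and 0 of 449, with 16 of 449 (3.56%) at an unadjusted p under 0.05 and none of the 8 among them. In the authors' log2 fold change 4 of 8 arms lay above 0, and 49.5% of all rows did. The median of the 8 was 0.01 and that of all rows -0.01. Scaled to the same total all 8 lay above 0, between 0.23 and 1.59 on the log2 scale, with the median of all miRNAs at 0.44.

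**Figure D5:**
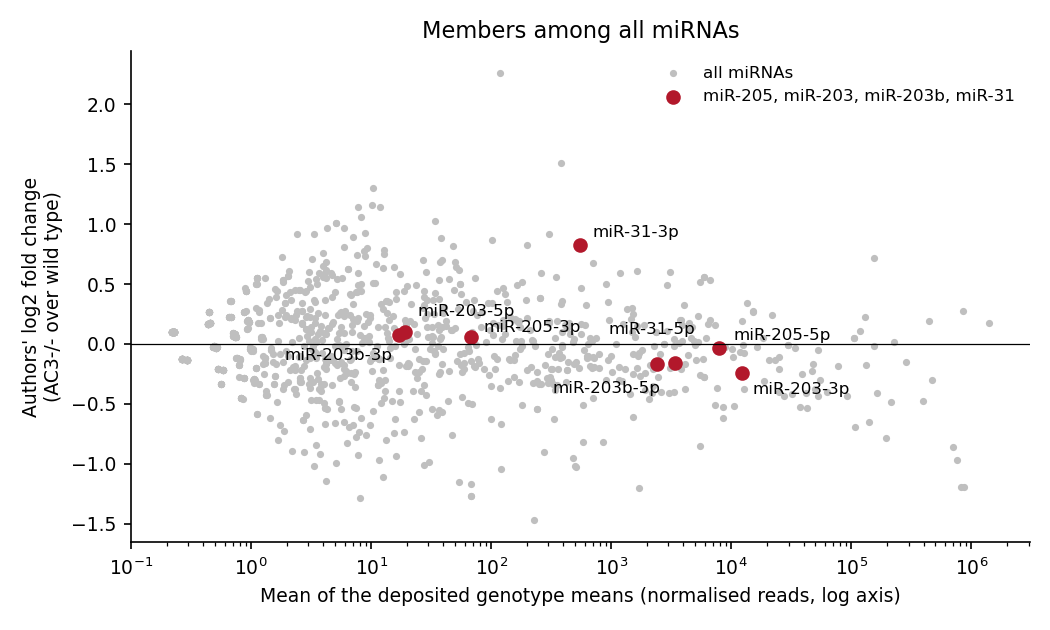
Log2 fold changes of AC3-/- over wild type, from the authors' deposited table, against the mean of the deposited genotype means (normalised reads, log axis) for all listed miRNAs (grey) and the 8 arms (red). miR-31-3p stands at 0.82, and the other 7 lie between -0.24 and 0.10.

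A list of 13 other miRNAs described in skin and stratified epithelium was set beside these. The list is not limited to such epithelium, as miR-214-3p is also among the mesenchymal arms above. In the table the authors deposited, 3 of the 13 lay above 0 and 10 below, with a median log2 fold change of -0.17. Those below include every miR-200 family arm listed (miR-200a-3p, miR-200b-3p, miR-200c-3p, miR-141-3p and miR-429-3p), from -0.40 to -1.19. Which cells of this tissue the listed miRNAs came from was not tested. Scaled to the same total, 8 of the 13 lay above 0 and the median log2 ratio was 0.30, against 0.44 over all miRNAs. None passed the adjusted p, and 2 had an unadjusted p under 0.05, both lower in AC3-/-. These were miR-200b-3p, with means of 399796 and 1351262 and a log2 fold change of -1.19, and miR-200a-3p, with 398861 and 997135 and -0.86. The miR-200 family shares the targets Zeb1 and Zeb2 with miR-205, whose log2 fold change was -0.04. The most abundant miR-200 arms could not be split into libraries; miR-141-3p, a family member that could, had 18849.0 and 22273.8 normalised reads in AC3-/- and 17615.4 and 41585.4 in wild type. It was highest in wild-type library b, where miR-205-5p was lowest. miR-34a-5p and miR-184-3p, at 0.56 and 0.49, had adjusted p-values of 0.9395, as did miR-21a-5p at 0.28.

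The miRNAs whose levels over the 4 libraries were most like the leading arm of each precursor were taken from 248 non-members with a mean of at least 100, by the root mean square difference of centred log2 values. With 4 points, such likeness is a description only. For miR-205-5p they were miR-126b-3p and miR-126a-5p (0.078 and 0.079), whose values were equal to 1 decimal in all libraries but wild-type library b, then miR-351-5p (0.119), miR-27a-5p (0.144) and miR-672-5p (0.146). The rows of miR-126b-3p and miR-126a-5p may therefore not be separate observations. miR-126a, known from endothelium, had 2642.2 and 2808.1 normalised reads in AC3-/- and 3678.6 and 1776.3 in wild type for its 5p arm. For miR-203-3p the nearest were miR-192-5p (0.033), miR-140-5p (0.064), miR-676-3p (0.066), let-7e-5p (0.076) and miR-1198-5p (0.079), all close to level over the libraries. For miR-31-5p they were miR-379-5p (0.053), miR-497a-5p (0.056), miR-214-3p (0.083), miR-195a-5p (0.084) and miR-28a-5p (0.103). In all 5 AC3-/- library a was the lowest library, as it was for miR-31-5p itself.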

How the data were processed

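Small RNA libraries of 4 samples were compared, 2 per genotype, grouped by the genotype label. Per the labels' protocols, adaptors were ligated to both RNA ends, followed by PCR and size selection on a gel. The protocols describe no molecular identifiers, so a read is not a separate molecule, and ligation and PCR bias bars comparing molecule numbers between miRNAs. Bowtie, DESeq 1.8.3 and GRCm38 are listed, without roles, per the submitters' processing notes. What counter, strand setting and miRBase release were used is not given in the sources used here. A signal was deposited by the authors, the mean normalised read count per genotype, with a log2 fold change, a p-value and an adjusted p-value. Their log2 fold change is shrunken: its size is 86.1% (median) of the log2 ratio between the deposited means, taken over the 296 rows averaging 100 or more.

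Each mean is a whole-number combination of the values of 1 read in 2 libraries. Rows with 1 solution were 1125 (96.4%) for AC3-/- and 1134 (97.2%) for wild type; size factors were 1.1479, 1.0986, 0.9411 and 0.8551. limma 3.58.1 (R 4.3.3) with an intensity trend was fitted to log2(normalised reads + 1) of 449 miRNAs with a mean of at least 10, with Benjamini-Hochberg adjustment over all; adding 1 understates changes of low miRNAs. The recovery and the fit were also run on simulated data. For the fit, all simulated libraries had the same spread. In the data the SD of the log2 ratio of library b over a was 1.11 in wild type and 0.57 in AC3-/-. The simulation therefore cannot show how the fit performs at such unequal spread. Arm ratios were fitted alike without a trend, after adding 0.5 reads. Members, lists and tests were chosen with earlier results of these data known. Named miRNAs are the members, the lists and the 5 nearest patterns per precursor; miR-1306, miR-186, miR-380, miR-485 and the opposite-strand pairs were named after their values were seen.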

Additional observations from a re-analysis of the deposited data

How the results depend on the processing

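No paired analysis was possible because the recovered libraries carry no replicate number. The count of 0 members called stayed 0 at an unadjusted p, over rows with a mean of at least 10 or 100, and with limma; in limma it was 0 under both pseudocounts, both filters, upper-quartile scaling and no trend, and 0 to 1 with 1 library left out, the 1 being miR-205-5p. With both genotypes scaled to the same total, the number of arms above 0 moved from 4 to 8 and of precursor sums from 0 to 4; miR-205-5p reversed to 0.45, miR-203-3p to 0.23, and miR-203b-5p and miR-31-5p to 0.31 each. The precursor sums reversed to 0.45 for miR-205, 0.23 for miR-203, 0.32 for miR-203b and 0.48 for miR-31. The cause is the scaling itself, which adds 0.50 to each ratio.

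With 1 library left out, limma log2 differences ran from -0.54 to 0.70 for miR-205-5p, from -0.56 to 1.26 for miR-205-3p, from -0.08 to 0.38 for miR-203-5p, from -0.17 to 0.44 for miR-203b-3p, from -0.46 to 0.05 for miR-31-5p and from 0.42 to 1.57 for miR-31-3p. The ranges of miR-203-3p (-0.32 to -0.20) and miR-203b-5p (-0.19 to -0.17) stayed below 0. From 0 to 2 of the precursor sums lay above 0, with ranges of -0.54 to 0.71 for miR-205 and -0.36 to 0.27 for miR-31; the cause was not tested. The miR-31 difference in 3p share was 6.16 to 12.7 percentage points. The epithelial list's median ran from -0.02 to 0.22 over its 5 miRNAs with library values, whose median with all libraries was -0.03. Depth limits the scarce arms, miR-203-5p and miR-203b-3p, which had 11 to 23 reads per library.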
